A study of Mus musculus with 14 samples.

Results

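Integrin subunits and laminin chains are the 2 sides of the attachment between a cell and its basement membrane, and 35 genes of these families were followed through the chemical conversion of mouse fibroblasts toward retinal pigment epithelium (RPE). The 35 genes are every row of the mouse count table, out of 55291 gene symbols, whose symbol is that of an integrin alpha subunit (17 genes), an integrin beta subunit (7 genes) or a laminin chain (11 genes), apart from Itgav and Itgb5, which were set aside by the rule of choice. The rule used names and no measured value. Of the 35, 34 had enough counts to be tested among 20562 genes in all, and 29 reached a mean of 10 CPM (counts scaled to a common library total) in at least 1 group. The gene that was not tested was Itgad, a leukocyte alpha subunit, with 7, 0, 0, 5 and 5 counts summed over the MEF, D7, D18, D32 and P-RPE libraries.

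All 14 libraries carry the C57BL/6J genotype. Mouse embryonic fibroblasts (MEF, 3 libraries) from embryonic day 13.5 embryos were the starting cells. Day 7 (D7, 3 libraries) and day 18 (D18, 3 libraries) cells are labelled as intermediates and were held in the M7 reprogramming medium, which contained bFGF, CHIR-99021, LDN193189, A 83-01, Hh-Ag1.5, RG108, BMS-345541 and CKI-7. Day 32 cells (D32, 3 libraries), labelled ciRPE, were in the M3 medium with Y27632, nicotinamide, retinoic acid and Activin A. Primary RPE (P-RPE, 2 libraries) had no treatment. Per the protocol, reprogramming cultures sat on Matrigel, a basement membrane extract that already contains laminin protein. The labels also name the M7 medium for MEF, and the same embryonic tissue for every library, P-RPE included. According to the protocol, treated cells with the look of a successful induction were scraped for RNA, so each treated group is a selected fraction of its culture. Whether replicate libraries are separate cultures or animals is not stated. The p-values therefore measure the spread between these libraries, which may be technical.

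Integrins are heterodimers of an alpha and a beta subunit in the plasma membrane, and the pairing sets the ligand: laminin, collagen, fibronectin, other proteins that carry the short RGD peptide, or counter-receptors on other cells. Laminins are cross-shaped trimers of an alpha, a beta and a gamma chain that polymerise into the sheet of every basement membrane. In the eye, RPE rests on Bruch's membrane, whose inner layer is the laminin-containing RPE basement membrane, while its apical integrins take part in contact with photoreceptor outer segments.

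Library totals ran from 32352405 to 41390196 counts. A set of 6 fibroblast markers came to 10530 to 10980 CPM in MEF, 5199 to 5768 CPM at D7 and 1610 to 6443 CPM at D18. Their sum was 6675 to 10530 CPM at D32, which reached the lowest MEF library, and 597 to 799 CPM in P-RPE. The 8 RPE markers came to 4.43 to 5.15 CPM in MEF, 3749 to 7472 CPM at D32 and 52450 to 59330 CPM in P-RPE. Best1, an RPE channel gene, stayed at 2.28 and 2.29 CPM in P-RPE. The 6 astrocyte markers summed to 24340 to 35980 CPM at D18, against 1113 to 1476 CPM at D7 and 2076 to 2151 CPM at D32. P-RPE also held the highest sums of 10 leukocyte and macrophage markers (2357 and 2479 CPM) and of 8 endothelial markers (672 and 785 CPM). Its 5 Schwann and neural crest markers came to 424 and 588 CPM. D18 replicate 3 stood apart from its group in the fibroblast marker sum, at 1610 CPM against 5968 and 6443 CPM. In bulk RNA such as this, fewer cells of a type and less RNA per cell cannot be told apart.

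The leading subunits among the members were the same in MEF and D7 and differed at D18 and in P-RPE. Levels of different genes are set side by side here per kilobase of exon. Itgb1, the common partner of most alpha subunits, was the highest beta subunit among the members in MEF (465 CPM per kilobase), D7 (132.5) and D32 (234). Itgb4, the partner of Itga6 in hemidesmosomes, came first at D18 (108.2, with Itgb1 at 88.3). Itgb8, a partner of the alpha v subunit that activates latent TGF-beta, came first in P-RPE (103.8, with Itgb1 at 53.9). Among the alpha members, which leave out Itgav, the fibronectin receptor subunit Itga5 was highest in MEF (90.8 CPM per kilobase) and D7 (35.5). The laminin receptor subunit Itga7 was highest at D18 (26.1) and the laminin receptor subunit Itga3 in P-RPE (39.4). At D32, Itga5 (25.5) and Itga3 (24.19) lay within their SDs of 3.29 and 6.20. Divided by coding length instead, the first place at D18 went to Itgb1 (150.5, with Itgb4 at 139.2) and at D32 to Itga3 (43.1, with Itga5 at 39.9), and the other first places stayed with the same genes. Over the 34 tested members, the highest group was MEF for 10 genes, D7 for 4, D18 for 3, D32 for 7 and P-RPE for 10. In 8 of the 10 MEF genes and 9 of the 10 P-RPE genes, every library of that group exceeded all libraries of the other groups. These tallies were not made over all genes tested, so they do not set the members apart from other genes.

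**Figure D1:**
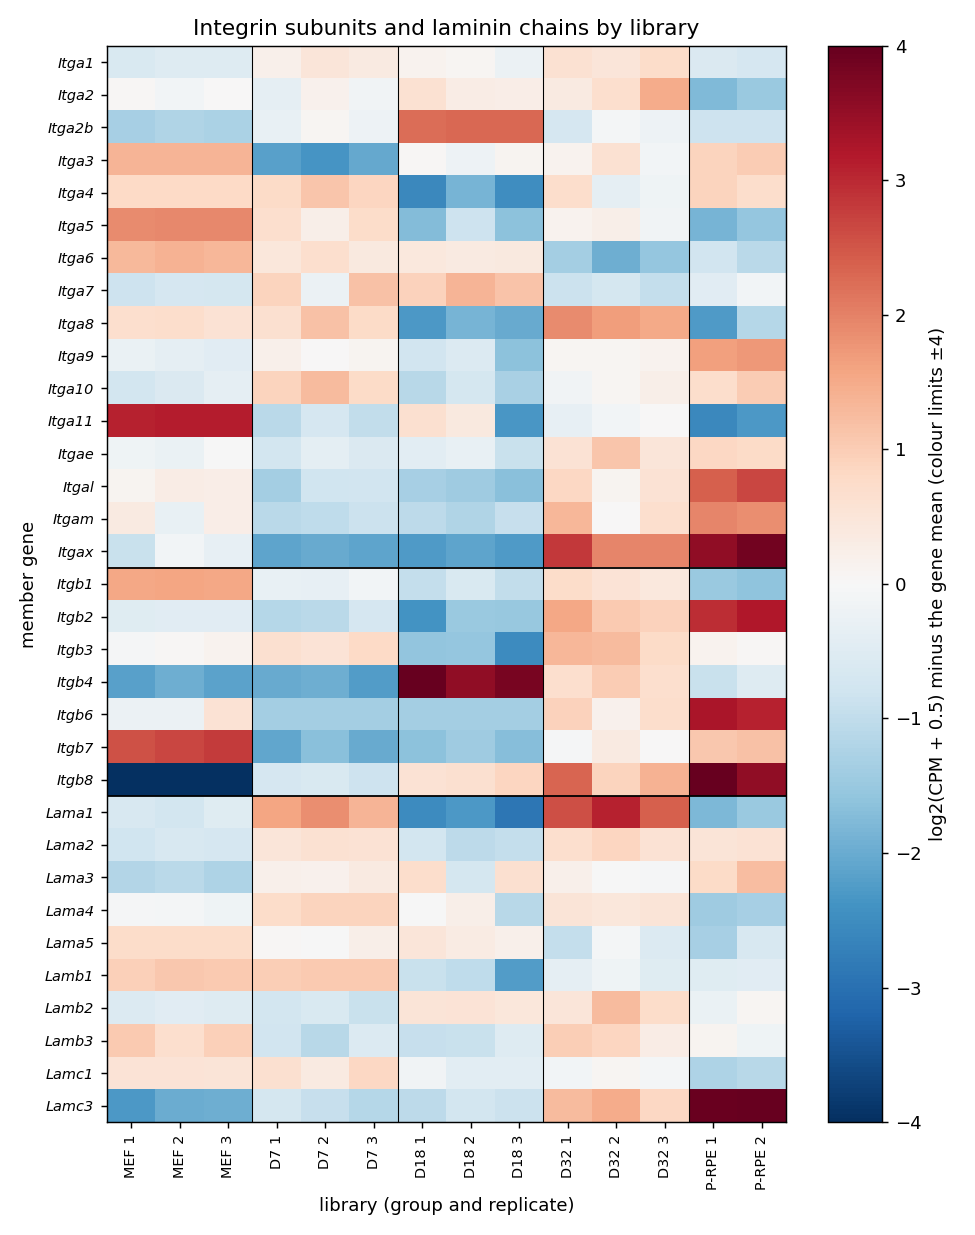
Level of the tested members reported here (rows, integrin alpha, integrin beta and laminin chains from top to bottom) in each of the 14 libraries (columns), as log2(CPM + 0.5) minus the mean of the gene over all libraries, with colours limited at 4 on either side. The Itgb8 row goes from deep blue in MEF to deep red in P-RPE, the Itgb4 and Itga2b rows are red in the 3 D18 libraries, and the Lama1 row is red at D7 and D32 and blue at D18.

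A total of 6 comparisons of groups were made with edgeR's quasi-likelihood test, with p-values adjusted over all genes by Benjamini-Hochberg and calls made under 0.05. Log2 changes are D7, D32 or P-RPE minus MEF, D18 minus D7, D32 minus D18, and D32 minus P-RPE. This holds in whatever order a sentence names the groups. From MEF to D7, 11 members rose (the background over all genes was 28.5%) and 13 fell (background 26.5%). In all, 70.6% changed where 55.0% of all genes did. From D7 to D18, 6 rose (background 29.2%) and 15 fell (background 27.4%), 61.8% in all against 56.6% of all genes. From D18 to D32, 22 rose (background 29.9%) and 5 fell (background 26.1%), 79.4% in all against 56.0% of all genes. The median log2 change was 1.14 over the members and 0.069 over all genes. All 7 beta subunits changed at this step, with 6 higher and Itgb4 lower.

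Over the whole course, D32 exceeded MEF in 17 members (background 35.6%) and lay below it in 11 (background 24.6%), 82.4% in all against 60.2% of all genes. P-RPE exceeded MEF in 15 (background 39.3%) and lay below it in 15 (background 31.4%), 88.2% in all against 70.7%. D32 and P-RPE, the made and the natural cells, still differed in 28 of the 34: 15 were higher at D32 (background 27.1%) and 13 were higher in P-RPE (background 26.8%), 82.4% in all against 53.9% of all genes. Comparisons that share a group also share its libraries. When libraries were scaled by their totals alone, the median of all genes went from 0.041 to 0.359 for D7 vs MEF, from 0 to -0.19 for D18 vs D7, from 0.259 to 0.457 for D32 vs MEF and from 0.022 to 0.25 for D32 vs P-RPE. The share of higher calls over all genes went from 51.8% to 69.7%, from 51.6% to 40.7%, from 59.2% to 69.1% and from 50.2% to 62.1%. The members higher and lower were then 13 and 12, 6 and 15, 18 and 10, and 17 and 12 in these comparisons.

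Among the beta subunits followed here, Itgb1 was highest in MEF and Itgb8 in P-RPE. Itgb1 (chr8:128685654-128733200 on GRCm38) pairs with most of the alpha subunits below and is present on nearly every cell. It measured 1877, 1926 and 1890 CPM in the MEF libraries, 525, 508 and 590.3 CPM at D7 and 334, 423 and 324 CPM at D18. Itgb1 came to 1068, 936 and 862 CPM at D32 and 228 and 212 CPM in P-RPE. Every D7 and D18 library lay far below MEF, D32 came back to about 955 CPM, and P-RPE was the lowest group, with no overlap between neighbouring groups. Itgb1 fell from MEF to D7 (log2 change -1.81, SE 0.13, adjusted p = 1.79e-08) and again to D18 (log2 change -0.59, SE 0.12, adjusted p = 0.000893). It rose to D32 (log2 change 1.41, SE 0.13, adjusted p = 2.43e-07) and was 4.34-fold higher at D32 than in P-RPE (log2 change 2.12, SE 0.15, adjusted p = 3.44e-08).

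Itgb8 (chr12:119158022-119238802 on GRCm38) rose at every step. It measured 3.53, 4.26 and 4.06 CPM in the MEF libraries, 47.1, 49.8 and 42.3 CPM at D7 and 115, 119 and 139.6 CPM at D18. Itgb8 came to 388, 141 and 200.5 CPM at D32 and 1404 and 891 CPM in P-RPE. No group overlapped another, and P-RPE exceeded MEF by 290.1-fold (log2 change 8.18, SE 0.39, adjusted p = 5.53e-10). The change from MEF to D7 (log2 change 3.55, SE 0.32, adjusted p = 6.72e-07) and that from D7 to D18 (log2 change 1.42, SE 0.29, adjusted p = 0.000785) took place in the M7 medium. From D18 to D32 it rose by 0.97 on the log2 scale (SE 0.28, adjusted p = 0.0101), a call that was lost with no filter on low counts (adjusted p = 0.0517). Within D32, replicate 1 had the highest Itgb8 level and the highest RPE marker sum (7472 CPM, against 5192 and 3749 CPM in replicates 2 and 3), but replicate 3 exceeded replicate 2 in Itgb8 and not in the marker sum. Per kilobase, the ratio of Itgb8 to Itgb1 went from 0.000767 in MEF to 0.0319 at D7 and 0.130 at D18. This ratio was 0.0919 in the D32 libraries and 1.91 in P-RPE (lowest and highest library 1.55 and 2.28, n = 2).

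Itgb6 (chr2:60598292-60722643 on GRCm38) encodes another epithelial partner of the alpha v subunit and was far less abundant. It measured 0.609, 0.609 and 1.45 CPM in the MEF libraries, 0, 0 and 0 CPM at D7 and 0, 0 and 0 CPM at D18. Itgb6 came to 1.95, 0.950 and 1.59 CPM at D32 and 11.8 and 10.5 CPM in P-RPE. No read was counted in any of the 6 libraries of D7 and D18, where 3 counts over a group serve as the floor, so that D7 lay at least 36.7-fold below MEF and D32 at least 54.3-fold above D18. P-RPE exceeded D32 in every library (log2 change -2.90, SE 0.42, adjusted p = 0.00016). Itgb6 and Itgb8 are the alpha v partners among the members that stood highest in P-RPE. The RefSeq promoter windows of both (GRCm38.p6, 250 bases before to 50 after a start, read on the gene's strand) are printed here. They are printed because the M-box, the E-box core bound by the RPE regulator MITF, can be looked for in them. The letters searched were CATGTG and its reverse complement CACATG for the M-box core and TAATCC or GGATTA for an OTX site, and capitals mark a match.
Itgb6, chr2:60722554-60722853, minus strand: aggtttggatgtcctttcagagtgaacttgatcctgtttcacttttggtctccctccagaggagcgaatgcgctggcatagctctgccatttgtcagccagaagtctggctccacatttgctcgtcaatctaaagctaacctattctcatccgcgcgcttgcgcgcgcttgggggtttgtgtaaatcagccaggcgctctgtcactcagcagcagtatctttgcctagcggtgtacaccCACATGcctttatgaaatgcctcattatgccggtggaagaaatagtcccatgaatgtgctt
Itgb6, chr2:60673644-60673943, minus strand, a second annotated start: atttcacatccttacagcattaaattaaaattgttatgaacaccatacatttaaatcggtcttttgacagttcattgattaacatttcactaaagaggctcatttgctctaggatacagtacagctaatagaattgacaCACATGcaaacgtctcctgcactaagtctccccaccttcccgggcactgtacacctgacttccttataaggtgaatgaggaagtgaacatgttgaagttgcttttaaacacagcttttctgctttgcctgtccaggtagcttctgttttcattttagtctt
Itgb8, chr12:119238227-119238526, minus strand: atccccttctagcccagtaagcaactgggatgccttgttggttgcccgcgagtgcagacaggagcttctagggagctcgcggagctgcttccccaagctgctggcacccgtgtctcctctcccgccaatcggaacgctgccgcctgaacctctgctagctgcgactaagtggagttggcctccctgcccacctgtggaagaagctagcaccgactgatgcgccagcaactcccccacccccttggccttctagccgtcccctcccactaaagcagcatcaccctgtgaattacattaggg
The M-box core begins 11 bases before the start in the first Itgb6 window and 111 bases before it in the other, and neither core letters nor OTX letters are in the Itgb8 window. Of 24 windows that matched 21 members, 5 hold the M-box core and 2 the OTX letters, while 14.2% and 7.1% of all 32851 RefSeq windows do. The other windows with the M-box core belong to Itga3, Itgb7 and Lamb1, and those with the OTX letters to Itgax and Lamb2. These are matches of letters and not binding sites.

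Itgb4 (chr11:115974709-116008412 on GRCm38) encodes the hemidesmosome subunit, which pairs only with Itga6 and anchors epithelia to laminin. It measured 11.3, 13.2 and 11.4 CPM in the MEF libraries, 12.7, 13.0 and 10.8 CPM at D7 and 923, 619 and 736 CPM at D18. Itgb4 came to 84.3, 107 and 83.5 CPM at D32 and 28.2 and 36.4 CPM in P-RPE. The 3 D18 libraries stood above all others, 62.3-fold over D7 (log2 change 5.96, SE 0.19, adjusted p = 1.43e-11). The level then fell to D32 (log2 change -3.05, SE 0.16, adjusted p = 1.54e-09), where it was still above MEF (log2 change 2.94, SE 0.17, adjusted p = 2.36e-09) and P-RPE (log2 change 1.51, SE 0.18, adjusted p = 6.21e-06). Its partner did not move with it. Itga6 measured 208, 221 and 213 CPM in the MEF libraries, 117, 136 and 112 CPM at D7 and 114, 109 and 110.2 CPM at D18. Itga6 came to 32.8, 21.6 and 28.4 CPM at D32 and 49.9 and 39.5 CPM in P-RPE. The D7 and D18 groups overlapped and the change between them did not pass (log2 change -0.13, SE 0.13, adjusted p = 0.432). Itga6 fell from MEF to D7 (log2 change -0.81, SE 0.13, adjusted p = 0.00011) and from D18 to D32 (log2 change -2.01, SE 0.14, adjusted p = 1.83e-08). The per-kilobase ratio of Itgb4 to Itga6 was 0.0719 in MEF, 0.129 at D7 and 8.75 at D18 (7.28 to 10.4). It came down to 4.49 in the D32 libraries and 0.956 in P-RPE. The 6 surface epithelium and keratinocyte markers summed to 2.35 to 2.88 CPM at D7, 7.69 to 9.78 CPM at D18 and 42.9 to 63.0 CPM at D32. Among them Krt5 and Krt14, the basal keratins, had 0 counts in all D18 libraries, and Cdh1 stood at 0.114 to 0.393 CPM. Trp63 moved as Itgb4 did, with means of 0.466, 3.645 and 0.526 CPM at D7, D18 and D32, and was called at both steps. Krt8 was also called higher at D18 than at D7, at 3.38 against 1.22 CPM, and Epcam had means of 0.589 and 1.12 CPM and did not pass. The 6 astrocyte markers peaked at D18 as well, and their sums of 35980, 24340 and 33160 CPM in replicates 1, 2 and 3 had the same order as Itgb4. Itgb4 is also a Schwann cell gene. The 5 Schwann and neural crest markers summed to 42.6 to 48.0 CPM in MEF, 83.4 to 133 CPM at D7, 201 to 306 CPM at D18 and 424 to 588 CPM in P-RPE. In P-RPE, Itgb4 was below D18 and D32 but above MEF (log2 change 1.43, SE 0.17, adjusted p = 2.82e-06). The part of any of these cell types in the D18 level was not tested. An annotated RNA on the opposite strand, B230344G16Rik, shares 537 of the 7015 exon bases of Itgb4, and the strand setting of the counting is not given in the sources used here.

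**Figure D2:**
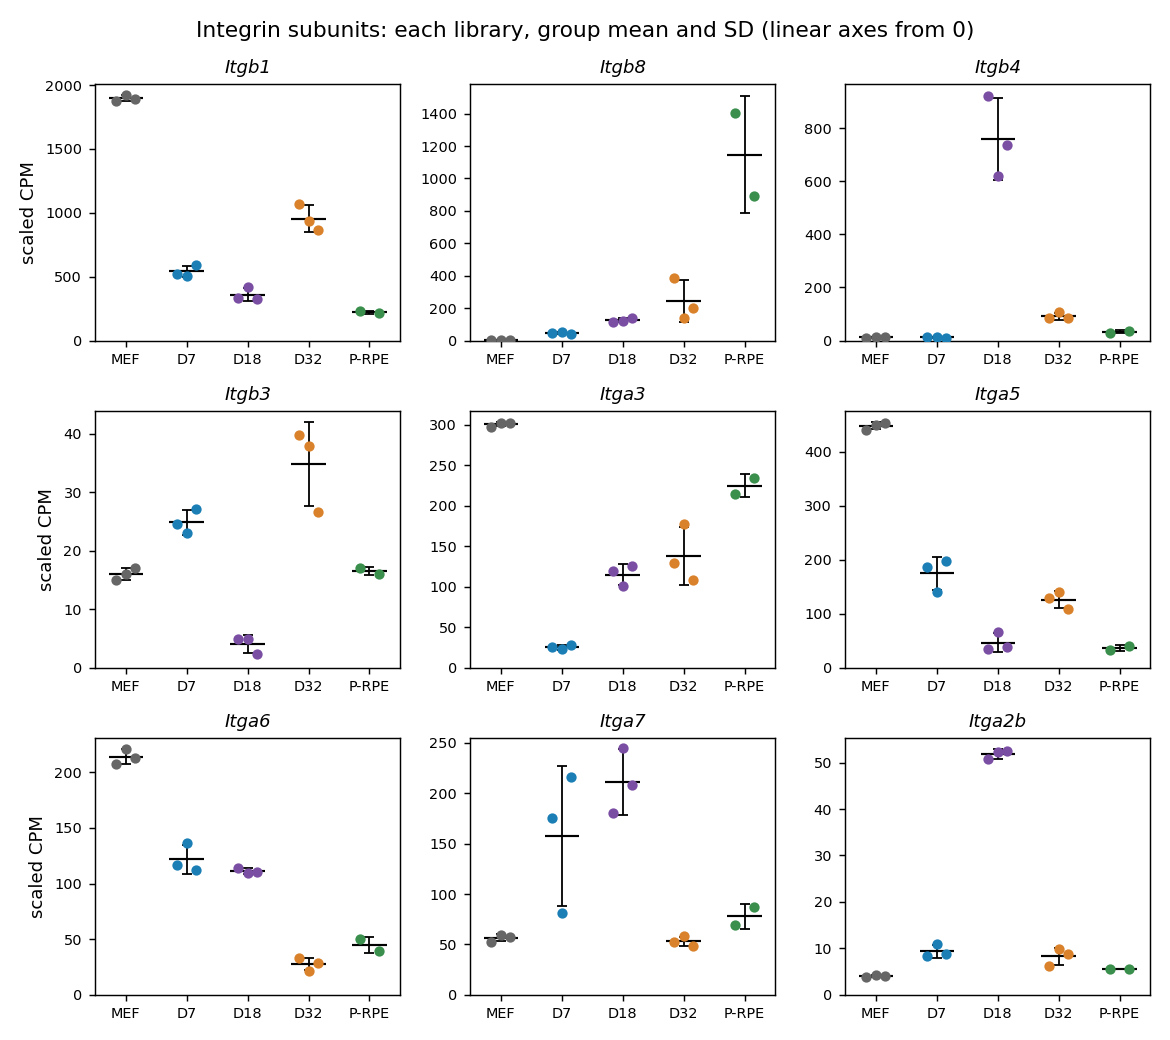
Scaled CPM of 9 integrin subunits in every library (points), with the group mean (long bar) and SD (error bar), on linear axes that start at 0; n is 3 for each group and 2 for P-RPE. The Itgb4 and Itga2b panels have their points far above the rest at D18 only, the Itgb8 panel climbs to 891 and 1404 in P-RPE, and the Itgb1, Itga5 and Itga6 panels are highest in MEF.

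Itgb3, which joins the alpha v subunit or Itga2b, had a trough at D18. It measured 15.1, 16.01 and 17.1 CPM in the MEF libraries, 24.5, 23.0 and 27.2 CPM at D7 and 4.86, 4.96 and 2.28 CPM at D18. Itgb3 came to 39.9, 38.0 and 26.7 CPM at D32 and 17.0 and 16 CPM in P-RPE. D18 was below every other library, with a fall from D7 (log2 change -2.62, SE 0.24, adjusted p = 2.56e-07) and a rise to D32 (log2 change 3.11, SE 0.24, adjusted p = 5.27e-08). D32 lay above P-RPE (log2 change 1.08, SE 0.25, adjusted p = 0.00202). The rise from MEF to D7 (log2 change 0.63, SE 0.22, adjusted p = 0.0224) was lost without MEF replicates 1 or 2 or D7 replicates 1 or 3 (adjusted p from 0.0528 to 0.0808). Itga2b, the alpha subunit of the platelet fibrinogen receptor with Itgb3, did the opposite at D18. It measured 3.81, 4.23 and 4.06 CPM in the MEF libraries, 8.34, 10.97 and 8.85 CPM at D7 and 50.7, 52.3 and 52.6 CPM at D18. Itga2b came to 6.28, 9.79 and 8.90 CPM at D32 and 5.57 and 5.66 CPM in P-RPE. The D18 libraries ran from 50.7 to 52.6 CPM and exceeded D7 (log2 change 2.46, SE 0.16, adjusted p = 1.03e-08) and D32 (log2 change -2.64, SE 0.16, adjusted p = 5.62e-09) without overlap. Of 6 platelet and megakaryocyte markers, Gp1bb was at 0 counts in all D18 libraries, Gp9 at 0 to 0.0534 CPM and Pf4 at 0.0534 to 0.570 CPM. Gp1ba had means of 0.709 CPM in MEF, 1.21 CPM at D7 and 1.74 CPM at D18. The whole list summed to 1.94 to 2.22 CPM at D18, most of it Gp1ba, and to 6.72 to 7.80 CPM in MEF, most of it Ppbp. The part of such cells in the Itga2b level was not tested. The small excess of P-RPE over MEF (log2 change 0.48, SE 0.18, adjusted p = 0.0296) was lost with no filter on low counts, in limma-voom or without MEF replicates 1 or 3, D7 replicates 1, 2 or 3, D18 replicate 2 or P-RPE replicates 1 or 2 (adjusted p from 0.0589 to 0.186). That of D32 over P-RPE (log2 change 0.57, SE 0.18, adjusted p = 0.0157) was lost in a fit of both groups alone or without D32 replicate 2 or P-RPE replicates 1 or 2 (adjusted p from 0.0509 to 0.0783).

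The other laminin-binding alpha subunits, Itga3 and Itga7, had profiles of their own. Itga3, the partner of Itgb1 in many epithelia, measured 298, 302 and 302 CPM in the MEF libraries, 25.2, 22.49 and 28.1 CPM at D7 and 119, 100.9 and 125 CPM at D18. Itga3 came to 129, 177 and 108 CPM at D32 and 215 and 235 CPM in P-RPE. D7 was the lowest group, 11.9-fold under MEF (log2 change -3.57, SE 0.17, adjusted p = 2.84e-10). The level rose to D18 (log2 change 2.19, SE 0.16, adjusted p = 2.75e-08). The change from D18 to D32 did not pass (log2 change 0.26, SE 0.15, adjusted p = 0.148), and D32 stayed under P-RPE (log2 change -0.70, SE 0.17, adjusted p = 0.00229). The D18 to D32 change passed with library totals alone or without D32 replicate 3 (adjusted p from 0.025 to 0.0398). P-RPE was near MEF: the difference (log2 change -0.42, SE 0.17, adjusted p = 0.0375) was lost with a minimum of 5 CPM, with the replicate block or without MEF replicates 1, 2 or 3 or P-RPE replicates 1 or 2 (adjusted p from 0.0553 to 0.176). The per-kilobase ratio of Itga3 to Itga6 was 8.39 at D32 and 8.10 in P-RPE, compared with 2.22 in MEF, 0.332 at D7 and 1.63 at D18.

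Itga7, the laminin receptor subunit best known from skeletal muscle, measured 52.8, 59.2 and 57.7 CPM in the MEF libraries, 176, 81.0 and 216 CPM at D7 and 180.2, 245 and 208 CPM at D18. Itga7 came to 52.5, 58.0 and 48.9 CPM at D32 and 69.2 and 86.8 CPM in P-RPE. D7 replicate 2 was well below the other D7 libraries but still above MEF, and D18 overlapped D7. Itga7 rose from MEF to D7 (log2 change 1.48, SE 0.26, adjusted p = 0.000277) and fell from D18 to D32 (log2 change -1.99, SE 0.26, adjusted p = 2.35e-05). Between D7 and D18 it did not pass (log2 change 0.42, SE 0.25, adjusted p = 0.178), but it did without D7 replicate 3 (adjusted p = 0.0302). D32, MEF and P-RPE did not differ past the threshold in any of their 3 comparisons (adjusted p = 0.776, 0.159 and 0.116), although P-RPE exceeded MEF in a fit of both groups alone or without D7 replicate 2 (adjusted p from 0.00373 to 0.0467) and D32 in a fit of both groups alone or without D7 replicate 2 (adjusted p from 0.00839 to 0.0268). The 5 skeletal muscle markers summed to 2.10 to 3.86 CPM at D7 and 0.998 to 1.98 CPM at D18. In MEF they came to 187 to 198 CPM. The part of muscle cells in the Itga7 level was not tested.

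Itga5, the fibronectin receptor subunit, was highest in MEF. It measured 441, 449.5 and 453 CPM in the MEF libraries, 187, 140.5 and 197 CPM at D7 and 34.9, 65.9 and 37.8 CPM at D18. Itga5 came to 129.9, 139.7 and 108 CPM at D32 and 32.01 and 40.4 CPM in P-RPE. Each group was clear of the next except D18 and P-RPE, which overlapped. The fall from MEF to D7 (log2 change -1.36, SE 0.21, adjusted p = 6.35e-05) and to D18 (log2 change -1.92, SE 0.21, adjusted p = 2.69e-06) was followed by a rise to D32 (log2 change 1.45, SE 0.21, adjusted p = 3.87e-05), and D32 lay above P-RPE (log2 change 1.80, SE 0.25, adjusted p = 2.59e-05). Its ligand Fn1, fibronectin, was likewise highest in MEF and lowest in P-RPE, with means of 11070, 2251, 795, 7365 and 82.7 CPM from MEF to P-RPE. Itga8, which joins Itgb1 to bind nephronectin and fibronectin, measured 14.98, 15.3 and 14.2 CPM in the MEF libraries, 14.6, 21.3 and 15.9 CPM at D7 and 1.49, 2.21 and 1.94 CPM at D18. Itga8 came to 35.3, 30.7 and 27.1 CPM at D32 and 1.51 and 3.97 CPM in P-RPE. D32 was clear of all other libraries, and D18 and P-RPE were both low. Itga8 fell from D7 to D18 (log2 change -3.20, SE 0.28, adjusted p = 1.97e-07) and rose to D32 (log2 change 4.04, SE 0.29, adjusted p = 2.24e-08). It was higher at D32 than in P-RPE (log2 change 3.50, SE 0.33, adjusted p = 4.86e-07; log2 change 4.36 without P-RPE replicate 2). Against MEF, P-RPE was lower (log2 change -2.43, SE 0.31, adjusted p = 5.5e-06; -3.29 without P-RPE replicate 2).

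Of the collagen-binding subunits, which all pair with Itgb1, Itga11 had the widest gap between MEF and the other groups. Itga11, a receptor for fibrillar collagen on mesenchymal cells, measured 82.6, 86.9 and 86.3 CPM in the MEF libraries, 4.16, 5.68 and 4.50 CPM at D7 and 14.9, 12.6 and 1.48 CPM at D18. Itga11 came to 7.31, 8.71 and 9.40 CPM at D32 and 1.15 and 1.53 CPM in P-RPE. MEF stood above every other library, 17.8-fold over D7 (log2 change -4.15, SE 0.56, adjusted p = 3.68e-05) and 63.5-fold over P-RPE (log2 change -5.99, SE 0.76, adjusted p = 1.16e-05). D18 replicate 3, the library with the low fibroblast marker sum, was also low in Itga11. From D7 to D18 the change did not pass (log2 change 1.01, SE 0.52, adjusted p = 0.115), but without that library it did (log2 change 1.52, adjusted p = 2.16e-06). So did the change from D18 to D32 (-0.70, adjusted p = 0.00199, against -0.19 and 0.774 with it). D32 exceeded P-RPE (log2 change 2.66, SE 0.68, adjusted p = 0.00553), a call lost without P-RPE replicate 1 (adjusted p = 0.0617). Itga1, a subunit for collagen IV and collagen I, measured 16.3, 17.5 and 17.3 CPM in the MEF libraries, 29.1, 35.0 and 32.33 CPM at D7 and 27.9, 26.7 and 21.2 CPM at D18. Itga1 came to 38.6, 35.1 and 42.5 CPM at D32 and 16.6 and 15.52 CPM in P-RPE. D32 was the highest group and MEF and P-RPE the lowest. Itga1 rose from MEF to D7 (log2 change 0.91, SE 0.13, adjusted p = 1.96e-05) and from D18 to D32 (log2 change 0.62, SE 0.12, adjusted p = 0.000647). The drop from D7 to D18 (log2 change -0.35, SE 0.12, adjusted p = 0.0261) was lost with RLE size factors, in a fit of both groups alone or without D7 replicate 2 or D18 replicate 3 (adjusted p from 0.0518 to 0.132). P-RPE and MEF overlapped in Itga1 (log2 change -0.09, SE 0.14, adjusted p = 0.602).

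Itga10, a collagen receptor of cartilage, measured 2.83, 3.24 and 3.83 CPM in the MEF libraries, 9.94, 12.9 and 8.90 CPM at D7 and 2.08, 2.91 and 1.77 CPM at D18. Itga10 came to 4.56, 5.43 and 6.00 CPM at D32 and 8.59 and 10.7 CPM in P-RPE. D7 and P-RPE were high and overlapped, and D18 was low. It rose from MEF to D7 (log2 change 1.68, SE 0.23, adjusted p = 1.73e-05) and fell to D18 (log2 change -2.23, SE 0.23, adjusted p = 1.27e-06). Itga10 rose again to D32 (log2 change 1.24, SE 0.23, adjusted p = 0.00034) and was higher in P-RPE than in MEF (log2 change 1.55, SE 0.25, adjusted p = 4.68e-05). Its excess at D32 over MEF (log2 change 0.69, SE 0.23, adjusted p = 0.0163) was lost without MEF replicate 1 or D32 replicate 3 (adjusted p from 0.061 to 0.0687). Its deficit against P-RPE (log2 change -0.86, SE 0.24, adjusted p = 0.00805) was lost without P-RPE replicate 2 (adjusted p = 0.0862). A predicted gene on the same strand, Gm42957, shares 1739 of the 5186 exon bases of Itga10 and had at most 8 counts in a group. Itga2, the other collagen receptor of this class, had group means under 10 CPM, at 4.98, 4.69, 6.78, 9.90 and 1.30 CPM. D32 replicate 3 was at 14.85 CPM, against 6.56 and 8.28 CPM in the others. Itga2 was lower in P-RPE than at D32 (log2 change 2.93, SE 0.35, adjusted p = 5.73e-06).

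Itga4 and Itga9 form a subfamily of alpha subunits that bind VCAM-1, fibronectin splice forms and tenascin. Itga4 measured 12.24, 12.23 and 12.25 CPM in the MEF libraries, 11.9, 15.3 and 12.6 CPM at D7 and 0.730, 1.49 and 0.798 CPM at D18. Itga4 came to 11.3, 5.22 and 5.95 CPM at D32 and 12.9 and 11.2 CPM in P-RPE. D18 was below every other library, with a fall from D7 (log2 change -3.71, SE 0.32, adjusted p = 1.55e-07) and a return at D32 (log2 change 2.89, SE 0.31, adjusted p = 1.76e-06), where replicate 1 was at 11.3 CPM and the other replicates at 5.22 and 5.95 CPM. The remaining difference of D32 from MEF (log2 change -0.71, SE 0.27, adjusted p = 0.0345) was lost with library totals alone or without MEF replicates 1, 2 or 3 or D32 replicates 2 or 3 (adjusted p from 0.0704 to 0.136). Cerkl, on the opposite strand, shares 1124 of the 13978 exon bases of Itga4 and had 499 counts in P-RPE, where Itga4 had 880. Itga9 measured 16.8, 15.9 and 14.9 CPM in the MEF libraries, 23.3, 20.4 and 22.2 CPM at D7 and 11.9, 13.9 and 6.21 CPM at D18. Itga9 came to 21.7, 21.6 and 22.4 CPM at D32 and 65.1 and 68.3 CPM in P-RPE. P-RPE was clear of all other libraries, 4.20-fold over MEF (log2 change 2.07, SE 0.22, adjusted p = 6.06e-07) and above D32 (log2 change -1.60, SE 0.22, adjusted p = 1.83e-05). Itga9 fell from D7 to D18 (log2 change -1.04, SE 0.20, adjusted p = 0.000427) and rose to D32 (log2 change 1.04, SE 0.20, adjusted p = 0.000458). Against MEF, D32 did not pass (log2 change 0.47, SE 0.20, adjusted p = 0.0547), but it did with library totals alone, with a minimum of 5 CPM, in limma-voom, in a fit of both groups alone or without D18 replicate 3 (adjusted p from 0.00176 to 0.0385).

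Of the leukocyte subunits Itgb2, Itgax, Itgal, Itgam, Itgae and Itgb7, all but Itgb7 had their highest means in P-RPE. That group also had the highest leukocyte marker sum. Itgae overlapped between D32 and P-RPE, and its change did not pass there (log2 change -0.04, SE 0.62, adjusted p = 0.964). Itgb2, the common beta subunit of the leukocyte integrins, measured 4.75, 4.87 and 4.94 CPM in the MEF libraries, 2.88, 3.02 and 4.17 CPM at D7 and 0.899, 2.13 and 2.11 CPM at D18. Itgb2 came to 21.1, 14.8 and 13.4 CPM at D32 and 57.1 and 67.2 CPM in P-RPE. P-RPE was highest and D32 next, without overlap, and both exceeded MEF (for P-RPE, log2 change 3.68, SE 0.28, adjusted p = 1.53e-08; for D32, log2 change 1.76, SE 0.25, adjusted p = 2.57e-05). Itgax, the alpha subunit of the CD11c integrin of macrophages and dendritic cells, measured 0.792, 1.72 and 1.42 CPM in the MEF libraries, 0.0543, 0.0909 and 0.0471 CPM at D7 and 0, 0.0534 and 0 CPM at D18. Itgax came to 16.6, 8.81 and 8.82 CPM at D32 and 27.2 and 34.0 CPM in P-RPE. At D18 it had 2 counts in all, against 1335 at D32, a ratio of 622 (95% counting interval 171.7 to 5137, which covers counting error only). Both D18 counts came from replicate 2 and lie under the floor of 3 counts. The fitted log2 change of 9.03 (adjusted p = 7.88e-09) ran from 8.53 to 11.72 over the alternatives. Itgal, the lymphocyte and myeloid partner of Itgb2, measured 1.65, 1.94 and 1.87 CPM in the MEF libraries, 0.272, 0.636 and 0.659 CPM at D7 and 0.281, 0.240 and 0.114 CPM at D18. Itgal came to 3.00, 1.64 and 2.45 CPM at D32 and 9.90 and 12.14 CPM in P-RPE. P-RPE was again clear of the rest (log2 change 2.60, SE 0.35, adjusted p = 7.48e-06), and Itgal rose from D18 to D32 (log2 change 3.46, SE 0.40, adjusted p = 3.12e-06). Its fall from D7 to D18 (log2 change -1.30, SE 0.42, adjusted p = 0.0167) was lost in limma-voom, in a fit of both groups alone or without D7 replicates 2 or 3 or D18 replicate 3 (adjusted p from 0.0508 to 0.0712). Itgam, the CD11b subunit, had means of 0.765, 0.0879, 0.0567, 1.47 and 3.85 CPM, and Itgae, the CD103 subunit, of 0.346, 0.126, 0.154, 1.08 and 1.11 CPM. A predicted gene on the same strand, Gm49368, shares 3450 of the 5024 exon bases of Itgam and had 0 counts in every group. How reads in the shared bases were counted is not given, so the Itgam level may be too low.

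The 10 leukocyte and macrophage markers summed to 214 to 219 CPM in MEF, 22.3 to 26.4 CPM at D7, 15.4 to 59.9 CPM at D18, 382 to 758 CPM at D32 and 2357 to 2479 CPM in P-RPE. Of the 10, 9 rose from D18 to D32 (background 29.9%) and 10 were higher in P-RPE than at D32 (background 26.8%). Ptprc, the pan-leukocyte surface marker, was at 0, 0 and 0.171 CPM at D18, 6.07 to 11.6 CPM at D32 and 24.6 and 27.4 CPM in P-RPE. D32 replicate 1 had the highest level of the group in Itgb2 and Itgax and the highest marker sum. The 5 T and NK cell markers summed to 0.397 to 1.05 CPM in MEF, 9.44 to 11.9 CPM (mostly Lck) at D18, 2.95 to 3.66 CPM at D32 and 4.45 to 5.68 CPM in P-RPE. Of the 4 that were tested, 3 were higher at D32 than in MEF (background 35.6%) and 4 were higher in P-RPE than in MEF (background 39.3%). Cd3e, the member not tested, reached 0.105 CPM at D32 and 0.322 CPM in P-RPE. The part of these cells in the levels of Itgb2, Itgax, Itgal, Itgam and Itgae was not tested. Itgb7, the beta subunit of gut-homing lymphocytes and mast cells, measured 21.9, 24.3 and 26.5 CPM in the MEF libraries, 0.407, 0.704 and 0.447 CPM at D7 and 0.730, 0.934 and 0.684 CPM at D18. Itgb7 came to 3.23, 4.46 and 3.37 CPM at D32 and 7.58 and 8.28 CPM in P-RPE. MEF was the highest group, 46.0-fold over D7 (log2 change -5.52, SE 0.25, adjusted p = 1.85e-10), and P-RPE, with the highest marker sum, lay below MEF (log2 change -1.61, SE 0.23, adjusted p = 1.35e-05). From D18 to D32 it rose (log2 change 2.23, SE 0.23, adjusted p = 9.98e-07).

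**Figure D3:**
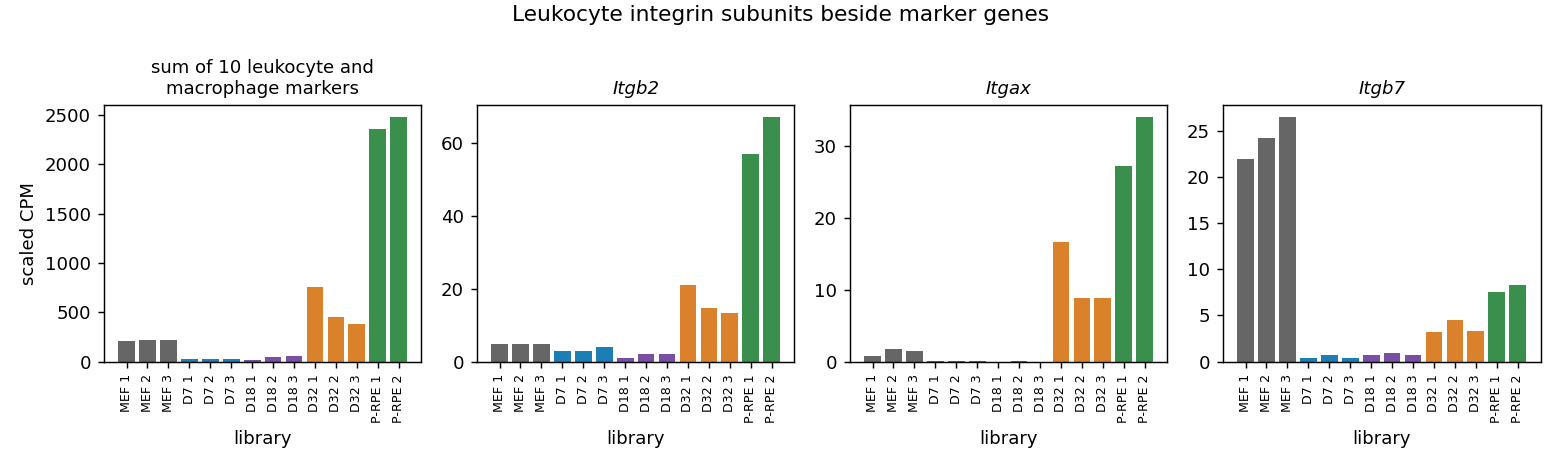
Scaled CPM in each library (bars, coloured by group, linear axes from 0) for the sum of 10 leukocyte and macrophage markers and for Itgb2, Itgax and Itgb7. Itgb2 and Itgax are highest in both P-RPE libraries and next at D32, as the marker sum is, whereas the Itgb7 bars are highest in MEF (21.9 to 26.5).

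Among the laminin alpha chains, which carry the main integrin-binding end of the trimer, Lama1 changed the most from step to step. Lama1, the alpha chain of early embryonic and retinal basement membranes, measured 5.05, 4.76 and 5.79 CPM in the MEF libraries, 25.6, 31.0 and 21.9 CPM at D7 and 1.01, 1.28 and 0.684 CPM at D18. Lama1 came to 51.4, 73.0 and 45.1 CPM at D32 and 2.02 and 2.63 CPM in P-RPE. D7 and D32 were high and D18 and P-RPE low, with no overlap. It rose from MEF to D7 (log2 change 2.33, SE 0.21, adjusted p = 3.17e-07) and fell 26.2-fold to D18 (log2 change -4.71, SE 0.25, adjusted p = 1.46e-09). It then rose 56.6-fold to D32 (log2 change 5.82, SE 0.26, adjusted p = 2.73e-10) and was 24.3-fold higher at D32 than in P-RPE (log2 change 4.60, SE 0.28, adjusted p = 9.83e-09). Among all members this was the highest ratio of D32 to P-RPE.

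Lama2, the chain of muscle and nerve laminins, measured 40.6, 45.1 and 44.5 CPM in the MEF libraries, 100, 107 and 106 CPM at D7 and 42.3, 33.9 and 36.2 CPM at D18. Lama2 came to 113, 129.8 and 107 CPM at D32 and 100.5 and 105 CPM in P-RPE. D7, D32 and P-RPE stood at like levels and MEF and D18 lower. It rose to D7 (log2 change 1.27, SE 0.10, adjusted p = 9.33e-08), fell to D18 (log2 change -1.48, SE 0.10, adjusted p = 2.31e-08) and rose to D32 (log2 change 1.64, SE 0.11, adjusted p = 8.79e-09). D32 and P-RPE did not differ past the threshold (log2 change 0.18, SE 0.11, adjusted p = 0.203), and with library totals alone they did (log2 change 0.40, adjusted p = 0.0031). Lama4, the chain of vascular and mesenchymal laminins, measured 79.9, 77.7 and 72.8 CPM in the MEF libraries, 137, 154 and 152 CPM at D7 and 81.3, 96.0 and 37.9 CPM at D18. Lama4 came to 117, 114 and 117 CPM at D32 and 30.2 and 32.21 CPM in P-RPE. P-RPE was below every other library, D18 replicate 3 being the nearest, and D7 was the highest group. Lama4 rose from MEF to D7 (log2 change 0.94, SE 0.23, adjusted p = 0.00263) and fell to D18 (log2 change -1.04, SE 0.23, adjusted p = 0.00126). It was higher at D32 than in P-RPE (log2 change 1.89, SE 0.27, adjusted p = 4.23e-05). Its rise from D18 to D32 (log2 change 0.69, SE 0.22, adjusted p = 0.0173) was lost with no filter on low counts or in a fit of both groups alone (adjusted p from 0.0684 to 0.0802). Its excess over MEF at D32 (log2 change 0.60, SE 0.22, adjusted p = 0.0337) was lost with RLE size factors, with no filter on low counts or without MEF replicates 1, 2 or 3, D7 replicates 1, 2 or 3 or D32 replicates 1, 2 or 3 (adjusted p from 0.0516 to 0.157).

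Lama5, the most widespread epithelial alpha chain, measured 284, 287 and 288 CPM in the MEF libraries, 178, 169 and 204 CPM at D7 and 243, 217 and 200.1 CPM at D18. Lama5 came to 88.7, 163 and 119 CPM at D32 and 68.9 and 109 CPM in P-RPE. MEF was clear of the rest and P-RPE overlapped D32. It fell from D18 to D32 (log2 change -0.83, SE 0.19, adjusted p = 0.00194) and was lower in P-RPE than in MEF (log2 change -1.68, SE 0.23, adjusted p = 9.94e-06). The fall from MEF to D7 (log2 change -0.64, SE 0.19, adjusted p = 0.0108) was lost with library totals alone (adjusted p = 0.135). D32 and P-RPE did not differ past the threshold (log2 change 0.47, SE 0.22, adjusted p = 0.0834) but did with library totals alone or without D32 replicate 1 or P-RPE replicate 2 (adjusted p from 0.0101 to 0.0138). Lama3, an alpha chain of skin and other epithelia, had means of 1.48, 4.71, 5.08, 4.06 and 8.51 CPM. It was higher in P-RPE than in MEF (log2 change 2.52, SE 0.36, adjusted p = 1.56e-05).

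The beta chains changed over between D7 and D18. Lamb1, the beta chain of most embryonic laminins, measured 595, 647 and 632 CPM in the MEF libraries, 600.3, 634 and 632 CPM at D7 and 164, 150.4 and 64.2 CPM at D18. Lamb1 came to 238, 274 and 217 CPM at D32 and 219 and 224 CPM in P-RPE. MEF and D7 overlapped and stood above all others, and D18 replicate 3 was the lowest library. Lamb1 did not pass between MEF and D7 (log2 change -0.01, SE 0.24, adjusted p = 1). It fell to D18 (log2 change -2.30, SE 0.25, adjusted p = 2.48e-06) and rose in part to D32 (log2 change 0.94, SE 0.24, adjusted p = 0.00399), which overlapped P-RPE (log2 change 0.13, SE 0.27, adjusted p = 0.695). Lamb2, the beta chain of synapse, kidney filter and retinal laminins, measured 321, 339 and 323 CPM in the MEF libraries, 278, 306 and 250.4 CPM at D7 and 669, 679 and 635 CPM at D18. Lamb2 came to 650.5, 1115 and 784 CPM at D32 and 385 and 498 CPM in P-RPE. It rose from D7 to D18 (log2 change 1.25, SE 0.17, adjusted p = 1.36e-05) and was higher at D32 than in P-RPE (log2 change 0.94, SE 0.19, adjusted p = 0.000629), with D32 replicate 2 far above the other replicates. From D18 to D32 the groups overlapped and the change did not pass (log2 change 0.36, SE 0.16, adjusted p = 0.0713); it passed with library totals alone, with the replicate block or without D32 replicate 1 (adjusted p from 0.00984 to 0.0493). The excess of P-RPE over MEF (log2 change 0.43, SE 0.18, adjusted p = 0.0449) was lost with no filter on low counts or without MEF replicates 1, 2 or 3, D7 replicates 1, 2 or 3, D18 replicates 1 or 2 or P-RPE replicate 2 (adjusted p from 0.053 to 0.375). Lamb3, the epidermal beta chain, stayed at means of 0.661 to 3.22 CPM, highest in MEF.

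The gamma chains set P-RPE apart. Lamc1, the common gamma chain, measured 446, 439.9 and 439 CPM in the MEF libraries, 471, 389 and 539.8 CPM at D7 and 277, 224 and 229 CPM at D18. Lamc1 came to 284, 323 and 287 CPM at D32 and 128 and 142 CPM in P-RPE. MEF and D7 overlapped at the top and P-RPE was the lowest group. It fell from D7 to D18 (log2 change -0.94, SE 0.13, adjusted p = 1.38e-05), and P-RPE was lower than D32 (log2 change 1.15, SE 0.14, adjusted p = 9.75e-06). Lamc3 (chr2:31887291-31946539 on GRCm38), a gamma chain of retinal, brain and vascular laminins, measured 0.548, 0.802 and 0.851 CPM in the MEF libraries, 2.66, 2.27 and 1.84 CPM at D7 and 2.02, 2.62 and 2.39 CPM at D18. Lamc3 came to 12.12, 14.1 and 8.80 CPM at D32 and 79.6 and 88.8 CPM in P-RPE. P-RPE stood 114-fold over MEF (log2 change 6.83, SE 0.25, adjusted p = 1.09e-11) and D32 15.8-fold (log2 change 3.98, SE 0.23, adjusted p = 2.67e-09). The step from D18 to D32 was clear of overlap (log2 change 2.32, SE 0.20, adjusted p = 1.85e-07), and P-RPE remained 7.21-fold above D32 (log2 change -2.85, SE 0.20, adjusted p = 3.7e-08). Endothelial markers, 8 genes, summed to 53.1 to 58.3 CPM in MEF, 170.4 to 228 CPM at D32 and 672 to 785 CPM in P-RPE. At D7 (4.05 to 4.70 CPM) and D18 (1.82 to 7.78 CPM) the sum was below MEF. From MEF to D7, 1 of the 8 genes rose (Cdh5, background 28.5%) and 3 fell (Tek, Kdr and Emcn, background 26.5%). The other 4 did not pass. Lamc3 rose from MEF to D7 (log2 change 1.61, SE 0.24, adjusted p = 3.86e-05). The part of endothelial cells in the Lamc3 level was not tested.

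Read as the share of each chain in its class, from CPM per kilobase of exon, these changes shifted the laminin make-up between groups. Lamb2 made up 45.9 ± 0.643% (SD, n = 3) of the beta chains in MEF, 42.1 ± 2.54% (SD, n = 3) at D7 and 89.6 ± 3.86% (SD, n = 3) at D18. The share was 84.5 ± 2.77% (SD, n = 3) at D32 and 76.1 ± 3.05% (SD, n = 2) in P-RPE. The main beta chain was Lamb1 up to D7 and Lamb2 from D18 on, by exon length, by coding length and with no length correction. Lamc3 made up 0.217% of the gamma chains in MEF, 0.666% at D7, 1.26% at D18, 4.93% at D32, and 45.8 and 45.9% in the P-RPE libraries; by coding length its P-RPE share was 38.7%. Lama5 made up 72.2% of the alpha chains in MEF, 42.5% at D7 and 69.1% at D18. Its share was 31.6% in the D32 libraries and 43.5% in P-RPE. Lama1 reached 17.1 ± 2.22% (SD, n = 3) at D32, against 1.35% in P-RPE, where Lama2 held 35.9 ± 5.04% (SD, n = 2). The first place among alpha chains depends on the length used: by coding length it went to Lama4 at D7 (46.7%) and D32 (41.8%) and to Lama2 in P-RPE (42.9%), and to Lama2 in P-RPE also with no length correction (44.4%).

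**Figure D4:**
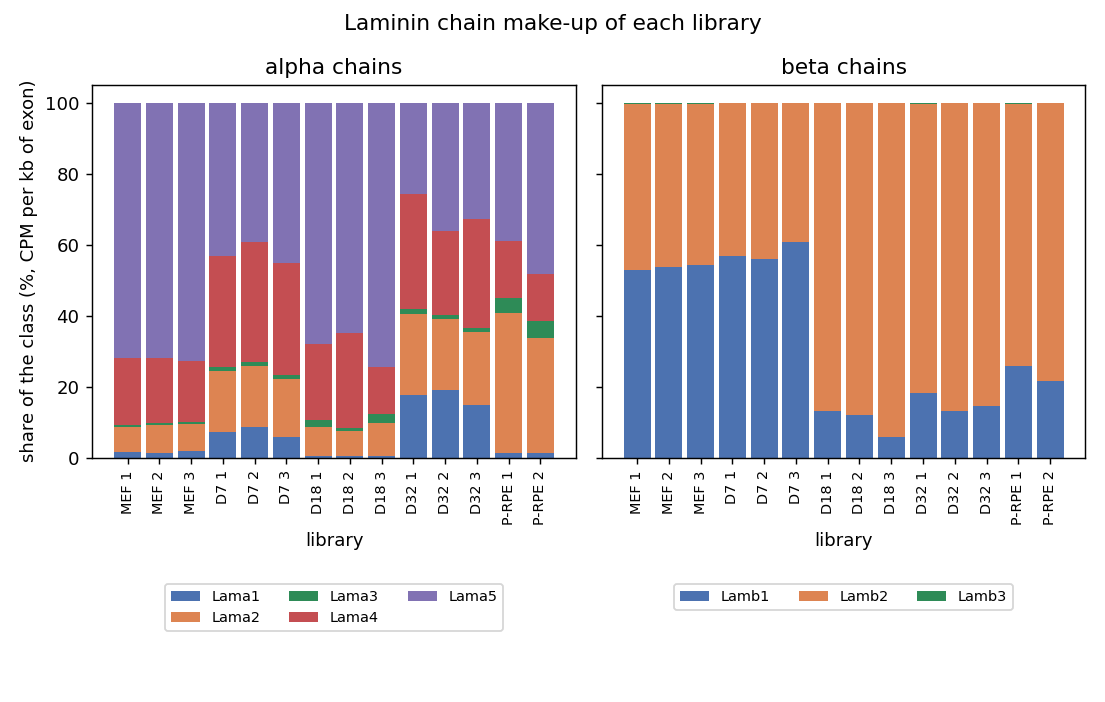
Share of each laminin chain in the alpha and the beta class (stacked bars to 100%, from CPM per kilobase of exon) in each of the 14 libraries. The beta panel turns from about equal parts of Lamb1 and Lamb2 in MEF and D7 to mostly Lamb2 from D18, and Lama1 is 17.1% of the alpha chains at D32 on average.

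Set directly against each other, D32 cells and P-RPE differed in all 7 beta subunits: Itgb1, Itgb3 and Itgb4 were higher at D32, and Itgb2, Itgb6, Itgb7 and Itgb8 higher in P-RPE. The background for each class counted here is that of all genes tested, 27.1% higher at D32 and 26.8% higher in P-RPE. Of 16 alpha subunits tested, 6 were higher at D32 (Itga1, Itga11, Itga2, Itga2b, Itga5 and Itga8) and 7 in P-RPE (Itga10, Itga3, Itga6, Itga9, Itgal, Itgam and Itgax). Of 11 laminin chains, 6 were higher at D32, among them Lama1, Lama4, Lamb2, Lamb3 and Lamc1, and 2 in P-RPE (Lama3 and Lamc3). Of these, Itgam (log2 change -1.38, SE 0.52, adjusted p = 0.0358) was lost with library totals alone or without D7 replicate 1, D32 replicates 2 or 3 or P-RPE replicates 1 or 2 (adjusted p from 0.0506 to 0.124). Lamb3 (log2 change 0.95, SE 0.36, adjusted p = 0.0388) was lost with RLE size factors, with no filter on low counts, with the replicate block or without MEF replicate 3, D32 replicates 1 or 2 or P-RPE replicates 1 or 2 (adjusted p from 0.051 to 0.207). Lama3 (log2 change -1.07, SE 0.34, adjusted p = 0.0168) was lost without D32 replicate 3 or P-RPE replicate 2 (adjusted p from 0.0506 to 0.149). For Itga10, Itga11 and Itga2b the losses are given above with these genes, at adjusted p = 0.0862 for Itga10 without P-RPE replicate 2, 0.0617 for Itga11 without P-RPE replicate 1, and up to 0.0783 for Itga2b without a library. The 6 members that did not pass were Itga4, Itga7, Itgae, Lama2, Lama5 and Lamb1, with log2 changes from -0.69 to 0.47. Itga4 passed with RLE size factors, in DESeq2, in limma-voom or without D18 replicate 2 or D32 replicate 1 (adjusted p from 0.00261 to 0.0485), with a log2 change of -1.11 without D32 replicate 1. All 6 fibroblast markers were higher at D32 than in P-RPE (background 27.1%), at sums of 6675 to 10530 CPM against 597 and 799 CPM. The mesenchymal subunits Itga5, Itga8 and Itga11 and the chain Lama4 were also higher at D32. The part of such cells in these differences was not tested.

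**Figure D5:**
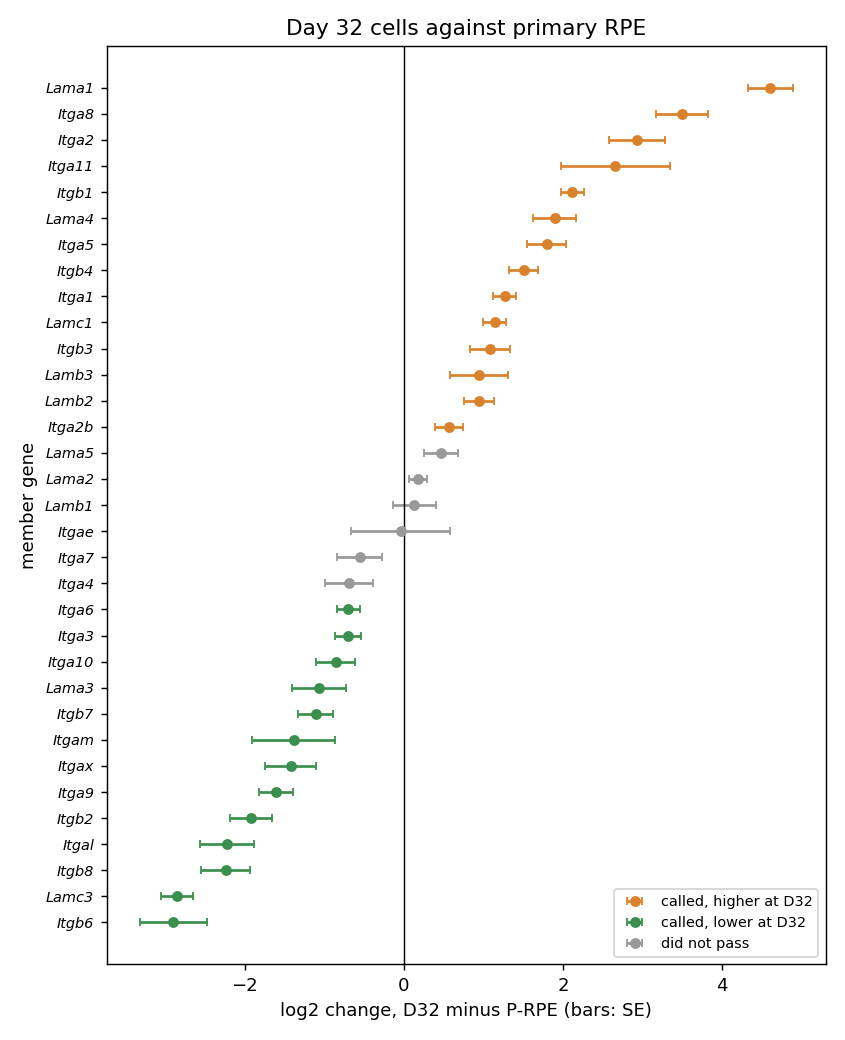
Log2 change of each tested member reported here between D32 and P-RPE (points, with SE bars), sorted; positive values are higher at D32. Lama1, at 4.60, lies at the top and Itgb6, at -2.90, and Lamc3, at -2.85, at the bottom.

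Genes that work with these families changed too. Of 26 cytoplasmic adaptors that link integrins to actin, 20 fell (background 26.5%) and 0 rose (background 28.5%) from MEF to D7, and the 6 others did not pass in edgeR's test. Actn1, an actin crosslinker, fell from 2019 to 175 CPM (log2 change -3.53, SE 0.14, adjusted p = 8.14e-11). From D18 to D32, 19 rose (background 29.9%) and 2 fell (background 26.1%). Those that fell were Tln2 (log2 change -0.61, adjusted p = 0.00366) and Pxn (-0.56, adjusted p = 0.000111), which encode a talin and paxillin. Parvg rose the most among adaptors with counts in both groups, from 0.0187 to 1.86 CPM. Its D18 level came from replicate 1 alone (0.0562 CPM) and lay under the floor of 3 counts, so this rank is uncertain. Fermt1 went from no count at D18 to 0.705 CPM. Among 18 partners of laminin in basement membranes, 9 were higher (background 39.3%) and 6 lower (background 31.4%) in P-RPE than in MEF. The highest changes were those of Col4a3 and Col4a4, chains of the collagen IV of the kidney filter: Col4a3 measured 2.92, 2.79 and 2.87 CPM in MEF, 61.2, 34.8 and 39.7 CPM at D32 and 388 and 313 CPM in P-RPE (log2 change 6.94, SE 0.27, adjusted p = 3.03e-11 for P-RPE vs MEF). Col4a4 reached 463 and 418 CPM in P-RPE (6.62, SE 0.28, adjusted p = 8.92e-11). Nid1, the nidogen that ties laminin to collagen IV, and Hspg2, perlecan, were lowest in relation to MEF, at 53.9 against 1387 CPM and 204.8 against 3871 CPM. Of 17 other integrin ligands tested, 13 were higher (background 27.1%) and 3 lower (background 26.8%) at D32 than in P-RPE. Fn1 (7365 against 82.7 CPM, log2 change 6.48, adjusted p = 2.69e-08) and Tnc, tenascin C (1531 against 13.9 CPM, log2 change 6.78, adjusted p = 2.59e-06), led the former. Vtn, vitronectin, an RGD ligand of alpha v integrins, and Vwf, the von Willebrand factor of endothelium, led the latter. Vtn measured 15.8, 9.66 and 10.9 CPM at D32 and 59.5 and 94.9 CPM in P-RPE.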

How the data were processed

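The 14 mouse RNA libraries fall into 5 groups. Counts per gene symbol were deposited as whole numbers, per the labels. Per the submitters' processing notes, STAR 2.7.11a, featureCounts of Subread, edgeR 4.0.16 and limma 3.58.1 were used, with the builds mm10, GRCm38 and GRCh38 and no role for each. The strand setting and the treatment of reads with several matches are not given in the sources used here, so overlapping genes may share reads. A table of 10 human columns was not used here.

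Counts were scaled with TMM and fitted with edgeR 4.0.16 in R 4.3.3 (1 robust quasi-likelihood model, 5 group means, all 14 libraries), after filterByExpr by group kept 20562 of 55291 symbols. Each of 6 comparisons was a contrast of 2 group means, with Benjamini-Hochberg adjustment over all genes tested and calls under 0.05. The SE was taken as |log2 change| / sqrt(F). Levels are CPM on TMM-scaled totals. Totals of 32352405 to 41390196 make 1 count worth 0.0227 to 0.0305 CPM, and 3 counts over a group are the floor for a group at 0.

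All 35 members matched GENCODE vM21 (GRCm38), which gave positions, exon and coding lengths. Promoter windows are RefSeq's (GRCm38.p6), with 21 members matched. Member windows on chromosome 18, where Lama3 lies, were left out, but the shares over all windows include that chromosome. Of the members, 1 is not reported here, though it stays in the fit and the counts, and all others are named; members whose mean reached 10 CPM in any group are given in every library, and from each partner list the 2 called genes with the largest change each way. The marker lists whose values are printed are those of fibroblasts, RPE, astrocytes, leukocytes and macrophages, T cells, platelets, endothelium, skeletal muscle, surface epithelium and Schwann cells; a list of 6 smooth muscle and pericyte markers summed to 5041 to 5321 CPM in MEF, 2809 to 5101 CPM at D32 and 1045 to 1128 CPM in P-RPE. The members and lists were chosen with earlier results of these data known. The alternatives tried were RLE scaling, scaling by totals alone, no filter, a minimum of 5 CPM, a replicate block, limma-voom 3.58.1, DESeq2 1.42.0, a fit to only the groups compared, and each library left out in turn. The pipeline was tested on simulated counts. Figures were drawn with matplotlib 3.10.9.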

Additional observations from a re-analysis of the deposited data

How the results depend on the processing

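Every count of members higher or lower stayed within 1.5 times its value under all 22 alternatives (8 settings and 14 left-out libraries). So did the counts over all genes, except those lower at D7 than in MEF, which went from 5450 to 3512 with library totals alone. Of 204 member changes, 158 were called. Of these, 136 were called under every alternative in which the gene was tested, 22 were lost under at least 1, and 0 reversed. Genes at low counts were not tested under every alternative. The change of Itgam from D18 to D32, for example, was tested in 21 of the 22. Of the 46 not called, 24 passed under at least 1 alternative, and 17 had another sign under at least 1. Among these 17 is Itgb6 between D7 and D18, whose change was 0 in the main fit. With library totals alone, members higher and lower were 25 and 5 for D32 vs D18 and 15 and 15 for P-RPE vs MEF. The labels do not say whether replicate numbers pair libraries. The correlation of same-numbered deviations from the group means ran from -0.097 to 0.095 over the comparisons. Differently numbered libraries were not set beside them, so these values do not decide whether libraries were paired. With the replicate block, members higher and lower were 11 and 13 for D7 vs MEF, 7 and 15 for D18 vs D7, 23 and 5 for D32 vs D18, 17 and 11 for D32 vs MEF, 14 and 14 for P-RPE vs MEF, and 14 and 13 for D32 vs P-RPE. Laminin shares moved by more than the SD between libraries in 45 of 55 values with coding length and in 31 of 55 with no length correction, and in 0 of 154 when a library was left out. P-RPE has 2 libraries, so leaving 1 out leaves a lone library that is assumed to vary like the other groups.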
